A study of Mus musculus with 22 samples.

Results

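The genes of the adherens junctions, desmosomes and gap junctions were examined in sorted lung epithelial cells (ECs) of 3 mouse genotypes. They were chosen by symbol as the protein-coding cadherins named Cdh with a number, the alpha-, beta- and delta-catenins, the nectins, the desmocollins and desmogleins, the plakophilins and the connexins, with Dsp, Jup, Ppl, Evpl, Afdn and Vcl added. This gave 72 of 21793 protein-coding genes. By role they were 5 classical cadherins, 18 type II or atypical cadherins, 7 catenins including vinculin, 5 nectins including afadin, 9 desmosomal cadherins, 8 desmosomal plaque proteins and 20 connexins.

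Adherens junctions and desmosomes hold neighbouring ECs together. In both, cadherins bind each other across the gap between cells. Inside the cell they are tied to actin through beta- and alpha-catenin in the adherens junction and to keratin filaments through plakoglobin, plakophilins and desmoplakin in the desmosome. Nectins with their adaptor afadin form a further adhesion system beside the cadherins, and connexins build the gap junction channels through which ions and small molecules pass between cells, for example between alveolar type 1 (AT1) and alveolar type 2 (AT2) cells.

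The cells were sorted from lungs as live cells negative for CD45 and CD31 and positive for EpCAM, from WT C57BL/6 mice and from mice lacking the aryl hydrocarbon receptor (AhR-/-) or the cytochrome P450 enzyme CYP1B1 (CYP1B1-/-) in the whole body, both backcrossed to C57BL/6. Both sexes over 7 weeks of age were used. Naive mice gave 4 WT, 3 AhR-/- and 3 CYP1B1-/- libraries, and mice with house dust mite (HDM) allergy gave 4 libraries of each genotype. These mice received HDM once into the nose (50 µg/ml, 10 µl per nostril), were challenged after 8 days with 500 µg/ml on 4 consecutive days, and were examined 72 h after the last dose. The labels do not say that libraries of a group came from separate animals, so that p-values measure the spread between these libraries. Naive and HDM libraries were deposited in separate tables, and state and table cannot be told apart.

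Libraries held 9654825 to 17878442 counts, of which 4399 to 60154 fell on the 72 genes in an HDM library and 48979 to 96905 in a naive library. A single predicted gene, Gm10800, took 0.0082% to 71.9% of the counts of a library, and 3 counts corresponded to 0.0742 to 1.09 CPM in the HDM libraries, where CPM is the count of a gene relative to the normalized size of its library. The targeted genes were not reduced in the libraries labelled as knockouts. Ahr stood at 17.3, 9.52, 20.4 and 17.9 CPM in HDM libraries with the AhR-/- label, against 12.7, 12, 12 and 8.04 CPM in those of WT, and Cyp1b1 at 8.26, 11.2, 3.34 and 3.33 CPM in those with the CYP1B1-/- label, against 0.567 to 2.04 CPM in WT. The libraries are therefore named by their labels below. Of the HDM libraries, AhR-/- replicates 3 and 4 had reads of 4 Y-linked genes (172 and 191 CPM in sum) and the others at most 0.258 CPM, while all naive libraries had 66.6 to 250 CPM.

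Most of the 72 genes were low in these cells. On library sizes set over all 22 libraries, 16 genes had a mean of at least 10 CPM in naive WT libraries, 23 lay between 1 and 10 CPM, and 33 lay under 1 CPM. All 72 had at least some counts, and 46 had a count in every library. Tests across genes, which drop genes of few counts, covered 43 of the 72 in the HDM table, 57 in the naive table and 62 over both tables. Those tested in none included Gja3, Gjb5, Gjd2, Gjd3, Gjd4, Gje1, Dsg1c, Pkp1 and Cdh26, with 18 to 129 counts each over the 22 libraries.

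Per kilobase of exon, where levels of different genes can be set side by side, E-cadherin (Cdh1), the main cadherin of epithelia, and alpha-catenin (Ctnna1), its link to actin, led in naive WT libraries. Cdh1 had a level of 169 ± 30.2 CPM per kb (SD, n = 4) and Ctnna1 of 141 ± 38.7 CPM per kb (SD, n = 4), a difference within their spread. Connexin 43 (Gja1), the most abundant connexin here, followed with 51.7 ± 7.54 CPM per kb, ahead of Nectin2 with 38.0 ± 8.69, plakophilin 2 (Pkp2) with 36.0 ± 13.7 and plakoglobin (Jup) with 30.9 ± 8.48 CPM per kb (SD, n = 4 each). Nectin2, Pkp2 and Jup did not differ beyond their spread. T-cadherin (Cdh13), which has a lipid anchor in place of a cytoplasmic tail, reached 23.0 ± 3.19 CPM per kb and vinculin (Vcl), which strengthens the link of catenins to actin, 13.6 ± 5.03 CPM per kb (SD, n = 4 each). After HDM, Cdh1 led in the WT libraries with 55.4 ± 12.3 CPM per kb, before Ctnna1 with 46.6 ± 7.83 and Gja1 with 14.8 ± 6.67 CPM per kb (SD, n = 4 each). Cdh1 and Ctnna1 did not differ beyond their spread there either. In the HDM libraries labelled AhR-/-, Ctnna1 stood first with 79.7 ± 30.5 CPM per kb, followed by Cdh1 with 61.0 ± 8.55 and Gja1 with 41.2 ± 10.9 CPM per kb (SD, n = 4 each). The spread of Ctnna1 there covered the level of Cdh1.

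**Figure D1:**
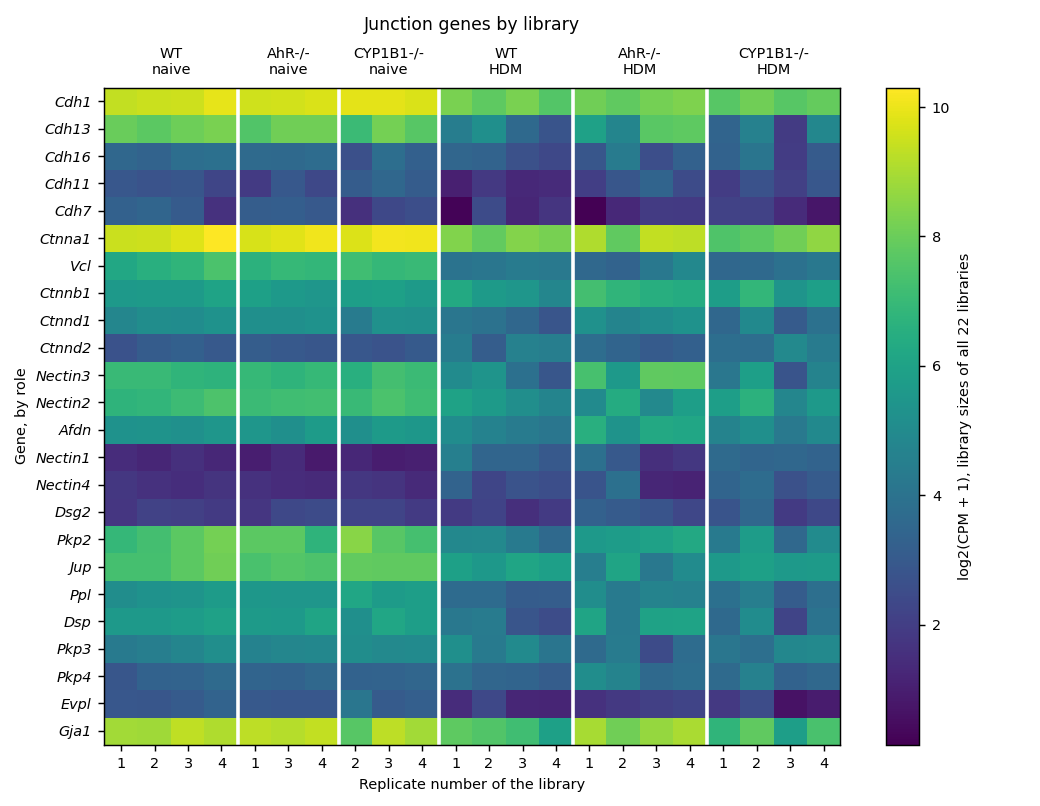
Level of the 24 genes with a mean of at least 5 CPM in any group, as log2(CPM + 1) on library sizes of all 22 libraries (colour), by library (columns, grouped by genotype and state) and gene (rows, ordered by role). Cdh1, Ctnna1 and Gja1 are bright in the naive libraries, and most genes are darker in the HDM libraries of WT and CYP1B1-/- than in the naive ones.

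Setting AhR-/- against WT in allergic mice asks whether the receptor is linked to the make-up of EC junctions in such lungs. Ctnnb1, Ctnnd1, Dsp, Pkp2, Ppl, Nectin3, Afdn, Gja1, Cdh11 and Cdh13 were higher in the AhR-/- libraries, by 1.15 to 2.81 on the log2 scale, and Ctnnd2 and Pkp3 were lower. No classical or desmosomal cadherin passed the test. Of the 43 genes tested, 10 were higher (23.3%) and 2 lower (4.65%) at an adjusted p of at most 0.05 in edgeR's quasi-likelihood test. Over all 14161 genes tested, 9.22% were higher and 12.9% lower. The median log2 fold change was 0.20 for the 43 genes and -0.00 for all genes. In bulk samples, fewer cells of a type and less RNA per cell cannot be told apart.

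Among the classical cadherins, none of 3 tested passed. Cdh1 (chromosome 8, 106603351 to 106670246 in GRCm38) had 190, 196, 202 and 160 CPM in WT libraries and 190, 169, 234 and 241 CPM in AhR-/- libraries, and the groups overlapped. Its log2 fold change was 0.16 (SE 0.26, edgeR adjusted p = 0.703).

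Of 11 type II or atypical cadherins tested, 2 were higher. Cdh13 (chromosome 8, 118283733 to 119324921) had 13.0, 32, 7.55 and 4.98 CPM in WT libraries and 42.8, 19.4, 167 and 167 CPM in AhR-/- libraries, a log2 fold change of 2.81 (SE 0.85, edgeR adjusted p = 0.0382). AhR-/- replicates 3 and 4 were far above all others, and AhR-/- replicate 2 lay below WT replicate 2. Cdh11, a cadherin known from mesenchymal cells, had 0.680, 2.27, 1.02 and 1.34 CPM in WT and 2.10, 4.60, 7.64 and 3.45 CPM in AhR-/- libraries. AhR-/- replicate 1 lay just under WT replicate 2, and the log2 fold change was 1.78 (SE 0.48, adjusted p = 0.0289). Cdh5, the cadherin of vascular endothelium, had a log2 fold change of 1.41 that did not pass (adjusted p = 0.166), and Cdh16 and Cdh7 had 0.50 and -0.45 (adjusted p = 0.562 and 0.805).

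Of the 7 catenins and vinculin, 2 were higher and 1 lower. Beta-catenin (Ctnnb1, chromosome 9, 120929216 to 120960507), which joins cadherins to alpha-catenin and also acts in Wnt signalling, had 50.1, 44.7, 29.2 and 22.5 CPM in WT and 107, 82.6, 72.8 and 63.0 CPM in AhR-/- libraries. Every AhR-/- library was above every WT library, with a log2 fold change of 1.15 (SE 0.38, adjusted p = 0.0475). p120-catenin (Ctnnd1), which stabilizes cadherins at the membrane, had 10.5, 13.2, 7.14 and 5.14 CPM in WT and 26.3, 19.0, 26.6 and 29.0 CPM in AhR-/- libraries, again without overlap, and a log2 fold change of 1.50 (SE 0.44, adjusted p = 0.0344). Exons of Ctnnd1 overlap those of the predicted gene Gm28635 on the same strand over 61.2% of their length, and 14.6% of the exon length of Ctnnb1 is shared with Ulk4 on the other strand, so that reads there cannot be assigned with certainty. Delta-catenin 2 (Ctnnd2, chromosome 15, 30172593 to 31029341), a relative of p120-catenin best known from neurons, was lower. It had 12.9, 7.04, 15.8 and 17.8 CPM in WT and 8.69, 7.16, 5.82 and 6.36 CPM in AhR-/- libraries, where WT replicate 2 lay among the AhR-/- values, and a log2 fold change of -0.92 (SE 0.30, adjusted p = 0.0425). Ctnna1 had 208, 206, 230 and 245 CPM in WT and 373, 170, 522 and 471 CPM in AhR-/- libraries. AhR-/- replicate 2 was the lowest of these 8 libraries, and the log2 fold change of 0.79 did not pass (SE 0.34, adjusted p = 0.103). Vcl had a log2 fold change of -0.10 (adjusted p = 0.858).

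Among the 5 nectins and afadin, 2 were higher. Nectin3 (chromosome 16, 46387706 to 46498525), which pairs with nectins 1 and 2 on neighbouring cells, had 20.1, 37.2, 9.38 and 5.30 CPM in WT and 113, 36.8, 179 and 164 CPM in AhR-/- libraries. AhR-/- replicate 2 lay at the level of WT replicate 2 while the other 3 AhR-/- libraries were above all WT libraries, and the log2 fold change was 2.79 (SE 0.77, adjusted p = 0.0308). Afadin (Afdn, chromosome 17, 13760539 to 13906150), which ties nectins to actin, had 21, 21.3, 13.2 and 13.8 CPM in WT and 63.3, 30.2, 60.7 and 52.5 CPM in AhR-/- libraries. The groups did not overlap, and with a log2 fold change of 1.58 (SE 0.32, adjusted p = 0.0261) Afdn had the lowest adjusted p of the 43 genes. The other nectins gave log2 fold changes of 0.20 for Nectin2 (adjusted p = 0.798), 0.02 for Nectin4 (adjusted p = 0.989) and -0.85 for Nectin1 (adjusted p = 0.215).

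None of the 4 desmosomal cadherins tested passed. Desmoglein 2 (Dsg2), the desmoglein of simple epithelia, came closest with a log2 fold change of 1.28 (SE 0.49, adjusted p = 0.0719). Of the 7 plaque proteins tested, 3 were higher and 1 lower.

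Desmoplakin (Dsp, chromosome 13, 38151294 to 38198577), which ties the desmosome to keratins, had 11.1, 17.7, 4.08 and 3.86 CPM in WT and 45.6, 14.3, 50.9 and 48.8 CPM in AhR-/- libraries. The AhR-/- libraries other than replicate 2 were above all WT libraries, with a log2 fold change of 2.15 (SE 0.69, adjusted p = 0.0433). Pkp2, which links desmosomal cadherins to desmoplakin, had 17.9, 26.6, 12.7 and 9.54 CPM in WT and 33.7, 40.1, 49.5 and 57.9 CPM in AhR-/- libraries, and a log2 fold change of 1.45 (SE 0.46, adjusted p = 0.0435). Periplakin (Ppl), a plakin that binds keratins, had 7.62, 10.7, 5.10 and 6.54 CPM in WT and 23.2, 14.1, 19.6 and 17.5 CPM in AhR-/- libraries, and a log2 fold change of 1.33 (SE 0.36, adjusted p = 0.0293). For both Pkp2 and Ppl the groups did not overlap. Plakophilin 3 (Pkp3), a plaque protein found in most epithelia, was lower, with 22.9, 16.6, 20.7 and 13.4 CPM in WT, 7.94, 14.6, 3.64 and 9.15 CPM in AhR-/- libraries, and a log2 fold change of -1.02 (SE 0.34, adjusted p = 0.0478). Only AhR-/- replicate 2 reached into the WT values. Jup had a log2 fold change of -0.74 (adjusted p = 0.151), Pkp4 of 0.97 (adjusted p = 0.0891) and envoplakin (Evpl) of 0.43 (adjusted p = 0.712).

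Of the 6 connexins tested, Gja1 was the one that passed. Gja1 (chromosome 10, 56377330 to 56402513) had 137, 168, 96.2 and 49.8 CPM in WT and 343, 201, 328 and 386 CPM in AhR-/- libraries. Every AhR-/- library was above every WT library, and the log2 fold change was 1.48 (SE 0.47, adjusted p = 0.0431). The groups were free of overlap for 6 of the 43 genes with AhR-/- above (Ctnnb1, Ctnnd1, Gja1, Pkp2, Ppl and Afdn) and for none with AhR-/- below, while over all genes tested 9.63% lay above and 15.3% below in this way.

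**Figure D2:**
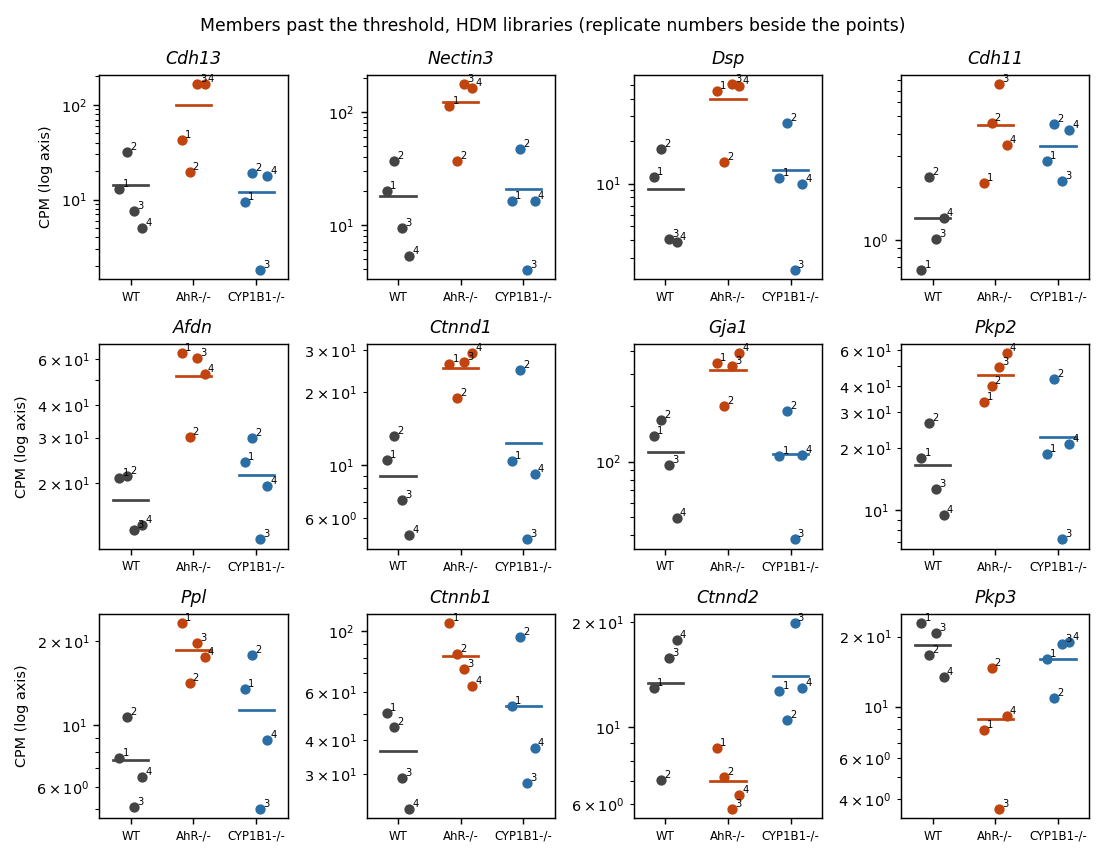
CPM on a log axis of the 12 genes past the threshold between AhR-/- and WT after HDM, by library (points, with replicate numbers) in the 3 genotypes; bars are group means. AhR-/- replicate 2 is the lowest AhR-/- library for Cdh13, Nectin3, Dsp, Afdn, Ctnnd1, Gja1 and Ppl, and CYP1B1-/- replicate 2 is the highest CYP1B1-/- library for the same genes.

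**Figure D3:**
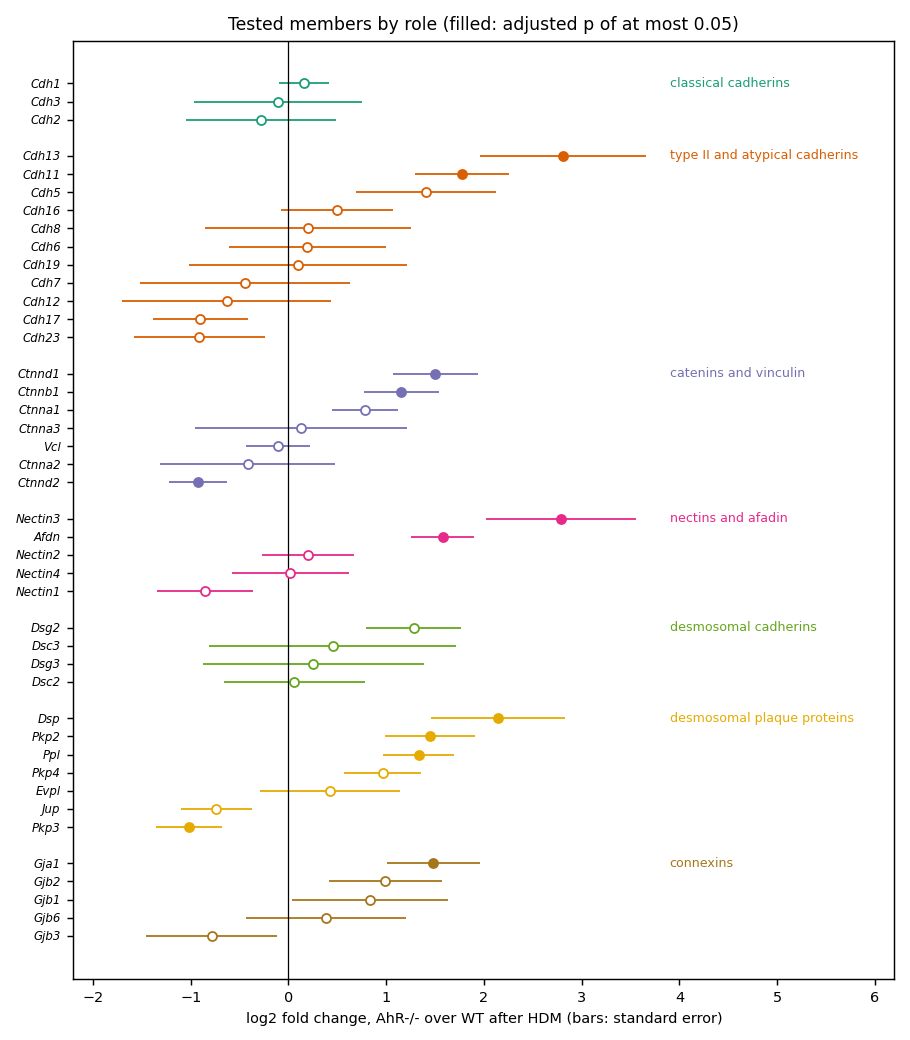
Log2 fold change of AhR-/- over WT after HDM with its standard error for 42 of the 43 genes tested, grouped by role; filled points have an edgeR adjusted p of at most 0.05. Filled points lie above 0 for 10 genes and below 0 for Ctnnd2 and Pkp3.

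Markers of other cells moved with these genes. Of 24 hematopoietic markers, 10 were lower in AhR-/- libraries and none higher, and their summed level over all 22 library sizes was 269 to 1330 CPM in AhR-/-, 1910 to 5880 CPM in WT and 413 to 6050 CPM in CYP1B1-/- HDM libraries, with none of the 24 at 0 in a group. Of 12 epithelial markers 5 were higher (1210 to 1710 CPM in AhR-/- against 488 to 1100 CPM in WT), and of 8 AT1 markers 1 was higher (4100 to 22700 CPM against 853 to 5590 CPM). Among the other lists, 2 of 8 club and goblet, 3 of 4 neuroendocrine and 1 of 5 mesothelial markers tested were higher and 2 of 5 basal markers were lower, and none of 10 AT2, 7 ciliated, 10 endothelial and 12 mesenchymal markers passed. The summed mesenchymal markers still ran from 838 to 1370 CPM in AhR-/- against 144 to 716 CPM in WT. Neuroendocrine sums ran from 39.9 to 86.6 against 9.36 to 24.4 CPM, and the sums of AT2, ciliated and endothelial markers overlapped. The part of these cells in the result was not tested. The summed hematopoietic markers of AhR-/- and WT libraries did not overlap, so that a fit with their score can hardly tell score and genotype apart. When a score of these hematopoietic markers was added as covariate, 0 of the 43 genes passed (4 at an unadjusted p under 0.05). The log2 fold changes of the 12 genes kept their sign and became smaller, for Cdh13 from 2.81 to 0.75, for Nectin3 from 2.79 to 1.23, for Dsp from 2.15 to 0.93, for Ctnnd1 from 1.50 to 0.75, for Gja1 from 1.48 to 0.78, for Pkp2 from 1.45 to 0.62, for Ppl from 1.33 to 0.83, for Pkp3 from -1.02 to -0.44 and for Ctnnd2 from -0.92 to -0.55. Those of Afdn, Cdh11 and Ctnnb1 became 1.10, 1.29 and 0.88. The adjusted p crossed the threshold when single libraries were left out, while the log2 fold changes of the 12 genes kept their sign. With 1 library left out they ran from 1.45 to 1.77 for Afdn, 1.30 to 1.69 for Ctnnd1, 1.19 to 1.50 for Ppl, 1.23 to 1.70 for Gja1, 2.47 to 3.35 for Nectin3 and 2.41 to 3.47 for Cdh13, whose highest value was that without WT replicate 2. The call was lost for all 12 genes without AhR-/- replicate 1, 3 or 4 or WT replicate 3 or 4, and for all but Afdn without WT replicate 1, where an unadjusted p under 0.05 was found for 13 to 16 genes in each fit. With no library left out, 15 genes had such a p, as did 38.8% of all genes. Of the 43 genes, 12 passed without AhR-/- replicate 2 and 10 without WT replicate 2. These need not be the same genes as above. Jup, Ctnna1 and Pkp4, which did not pass in the main fit, passed under 1, 2 and 3 of 17 alternatives. Without the Y-positive AhR-/- replicates 3 and 4, 0 passed (12 at an unadjusted p under 0.05), and with the replicate number as a block 0 passed. Without 5 HDM libraries of low depth, a choice made after seeing the data, 9 passed, while 6 of the 12 calls were lost. Left out there were AhR-/- replicates 3 and 4, WT replicate 2 and CYP1B1-/- replicates 1 and 2, so that this fit also lacked the Y-positive libraries.

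**Figure D4:**
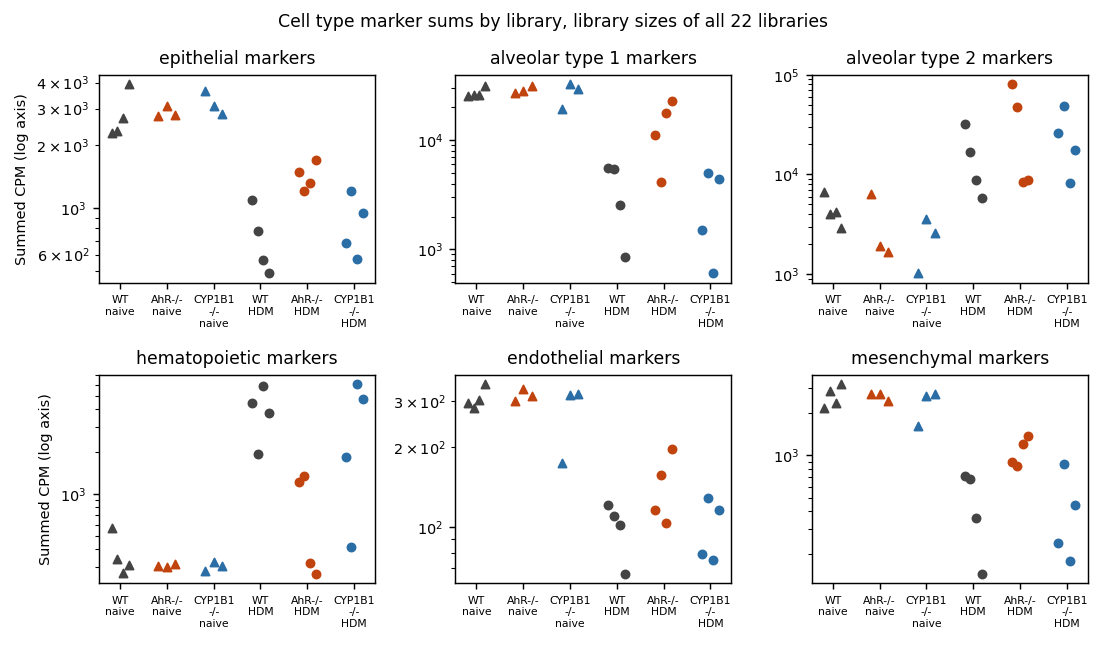
Summed CPM on a log axis of 6 lists of cell type markers by library, on library sizes of all 22 libraries; triangles are naive and circles HDM libraries. The AhR-/- HDM libraries lie below those of WT for hematopoietic markers (269 to 1330 against 1910 to 5880 CPM), and the naive libraries of all genotypes lie above all but 1 HDM library for AT1 markers.

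Promoter sequences were examined because AhR binds DNA at the core GCGTG, and Snail and Zeb proteins, which repress cadherins, at CACCTG. RefSeq windows of 300 bases on GRCm38.p6, from 250 before to 50 after a transcription start, were at hand for 38 of the 72 genes (49 windows). Either strand was searched, as GCGTG or CACGC. The core was in 27 of the 49 windows (55.1%), in 7 of the 8 windows of genes higher in AhR-/- libraries (87.5%), in 11 of 23 of genes tested but not past the threshold (47.8%) and in 32.4% of all 32851 windows. The 8 windows came from 6 genes and the 23 from 15, and 7 of the 12 genes past the threshold had a window. Base composition went along with these shares: the median GC content was 73.3% in the windows of the higher genes, 60% in those not past the threshold and 52.7% in all. CACCTG or CAGGTG was in 12 of the 49 windows (24.5%), in 1 of the 8 and in 9 of the 23, against 20.2% of all windows. No match of one motif overlapped a match of the other in the windows of these genes. A match is a string of letters and says nothing of binding in these cells.

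The windows of 5 genes past the threshold are given 5′ to 3′ in the direction of transcription, to show where the core lies in genes that were higher and in Ctnnd2, which was lower, in AhR-/- against WT libraries after HDM. Capitals mark GCGTG or CACGC. Gja1, Nectin3, Dsp and Ctnnd2 hold it once, and Afdn 5 times, of which 3 overlap in a run.
Gja1, chr10:56377050-56377349, plus strand: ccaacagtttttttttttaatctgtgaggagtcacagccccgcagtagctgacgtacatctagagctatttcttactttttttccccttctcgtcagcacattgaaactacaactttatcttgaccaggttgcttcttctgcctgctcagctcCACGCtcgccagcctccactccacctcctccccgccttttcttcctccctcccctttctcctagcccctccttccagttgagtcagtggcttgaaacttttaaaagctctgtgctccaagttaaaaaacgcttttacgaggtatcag
Nectin3, chr16:46496918-46497217, minus strand: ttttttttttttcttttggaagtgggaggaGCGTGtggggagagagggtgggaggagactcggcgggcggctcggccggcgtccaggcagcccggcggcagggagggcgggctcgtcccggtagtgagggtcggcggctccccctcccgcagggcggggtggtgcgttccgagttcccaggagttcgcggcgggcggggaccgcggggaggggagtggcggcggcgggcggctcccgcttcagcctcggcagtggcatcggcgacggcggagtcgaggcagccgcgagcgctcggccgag
Dsp, chr13:38151044-38151343, plus strand: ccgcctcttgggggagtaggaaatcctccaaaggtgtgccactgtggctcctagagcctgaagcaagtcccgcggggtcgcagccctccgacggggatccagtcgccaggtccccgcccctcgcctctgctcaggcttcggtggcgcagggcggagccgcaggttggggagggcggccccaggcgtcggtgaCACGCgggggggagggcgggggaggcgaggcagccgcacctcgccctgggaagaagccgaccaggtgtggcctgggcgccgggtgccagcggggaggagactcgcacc
Afdn, chr17:13760291-13760590, plus strand: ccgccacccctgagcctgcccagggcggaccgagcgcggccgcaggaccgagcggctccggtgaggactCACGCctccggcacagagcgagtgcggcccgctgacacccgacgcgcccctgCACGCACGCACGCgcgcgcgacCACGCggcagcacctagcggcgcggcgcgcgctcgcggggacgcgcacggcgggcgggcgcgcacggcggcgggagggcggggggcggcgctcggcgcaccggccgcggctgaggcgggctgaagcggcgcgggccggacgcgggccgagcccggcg
Ctnnd2, chr15:30172284-30172583, plus strand: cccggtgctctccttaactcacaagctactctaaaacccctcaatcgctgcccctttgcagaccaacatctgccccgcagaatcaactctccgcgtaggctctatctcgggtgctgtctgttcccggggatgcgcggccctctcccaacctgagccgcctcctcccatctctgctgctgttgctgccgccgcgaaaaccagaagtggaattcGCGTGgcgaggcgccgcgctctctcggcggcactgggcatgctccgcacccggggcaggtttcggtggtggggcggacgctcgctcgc

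Partners of the junctions were read from a list of 25 accessory genes, of which 23 were tested in the HDM table. In AhR-/- against WT libraries, 3 of the 23 were higher and 2 lower, where 9.22% and 12.9% of all genes were. Those higher were the tyrosine kinase Fer, which acts on catenins (log2 fold change 1.69, adjusted p = 0.0261), Shroom3, which recruits contractile actomyosin to the junction (1.64, adjusted p = 0.0431), and the tight junction scaffold Tjp1, which also binds connexin 43 (1.92, adjusted p = 0.0428). The beta-catenin inhibitor Ctnnbip1 (-1.22) and the phosphatase Ptpn1 (-1.21) were lower (adjusted p = 0.0261 each). Of 8 transcription factors that repress cadherin genes, 4 were tested, and Zeb1 was lower (log2 fold change -1.66, adjusted p = 0.0293). Zeb1 and Zeb2 are also expressed by leukocytes, and the hematopoietic markers given above were lower in the same libraries. The part of leukocytes in the level of Zeb1 was not tested.

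Between CYP1B1-/- and WT libraries after HDM, 0 of the 43 genes passed, as did 0% of all genes in either direction, and 2 had an unadjusted p under 0.05. These were Cdh11 (log2 fold change 1.45, SE 0.47) and Dsg2 (1.17, SE 0.49), and Ppl (0.58) and Cdh5 (1.10) were among the next by p, each with an edgeR adjusted p of 0.9992. Gja1 had 107, 187, 38.0 and 108 CPM in CYP1B1-/- libraries and overlapped WT, with a log2 fold change of -0.04 (SE 0.47). The values of Nectin3 were 16.3, 47.1, 3.98 and 16.1 CPM and those of Afdn 24.1, 30.0, 12.2 and 19.6 CPM in CYP1B1-/- libraries, with log2 fold changes of 0.21 (SE 0.73) and 0.30 (SE 0.32). CYP1B1-/- replicate 2 was the highest and replicate 3 the lowest CYP1B1-/- library for all 3 genes.

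Set against each other directly, AhR-/- and CYP1B1-/- HDM libraries differed in 0 of the 43 genes in edgeR's quasi-likelihood test, with 11 at an unadjusted p under 0.05, as had 29.9% of all genes. Over all genes, 0% were higher and 0.00706% lower in AhR-/-. The lowest p belonged to Afdn (log2 fold change 1.28, SE 0.32, adjusted p = 0.0638), Cdh13 (3.04, adjusted p = 0.0639), Nectin3 (2.58, adjusted p = 0.0646), Ctnnd2 (-0.99, adjusted p = 0.0648) and Gja1 (1.52, adjusted p = 0.0683). All AhR-/- libraries lay above all CYP1B1-/- libraries for Gja1, Afdn and Cdh13 and below them for Ctnnd2, as did 4.31% and 3.24% of all genes tested. Calls depended on the tool and on 1 library: 6 genes passed in edgeR's likelihood ratio test, 7 in DESeq2, 7 without AhR-/- replicate 2 and 11 without CYP1B1-/- replicate 2.

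In naive mice, where the comparison asks for a difference at steady state, the genotypes gave no calls among the 57 genes tested. AhR-/- against WT had 0 genes at an unadjusted p under 0.05 (0% of all 15547 genes passed in either direction), and the lowest p was that of Cdh5, with a log2 fold change of -0.94 (SE 0.59), followed by Gjc3 (-0.78), Nectin1 (-0.47), Cdh11 (-0.36) and Ctnna3 (-0.41), all with an edgeR adjusted p of 0.9999. Gja1 had 723, 685, 922 and 710 CPM in WT, 909, 821 and 902 CPM in AhR-/- and 287, 830 and 642 CPM in CYP1B1-/- libraries. CYP1B1-/- replicate 2 was the lowest naive library and the others overlapped. CYP1B1-/- against WT had 5 genes at an unadjusted p under 0.05, namely Cdh17 (-1.12), Ppl (0.45), Dsc3 (-0.91), Cdh9 (-1.05) and Cdh7 (-1.05), none past the threshold (adjusted p = 0.822), where 0.00643% of all genes were higher and 0.00643% lower. AhR-/- against CYP1B1-/- had 2, Cdh11 (-0.91) and Evpl (-0.66), before Cdh7 (1.09), Dsc3 (0.80) and Ppl (-0.38), all with an adjusted p of 0.936, where 0.00643% were higher and 0% lower. All 3 naive AhR-/- libraries lay above all 3 of CYP1B1-/- for 10 of the 57 genes (17.5%), among them Ctnnd1 and Cdh2, and below them for 7 (12.3%), among them Cdh1 and Jup, where 7.06% and 4.97% of all genes did so. The log2 fold changes of these 4 genes, named after their values were seen, were 0.27, 0.58, -0.17 and -0.31. Against WT, the groups did not overlap for 1 gene above and 0 below in AhR-/- (2.54% and 1.89% of all genes) and for 1 in each direction in CYP1B1-/- (1.61% and 1.46%). DESeq2 and the likelihood ratio test also gave 0 calls among these genes in naive mice.

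The comparison of HDM with naive libraries asks how the junction genes stood in allergic lungs within a genotype, with all 22 libraries in one fit and CPM on library sizes of all 22. All naive libraries had reads of the Y-linked genes, while the HDM libraries of WT and CYP1B1-/- had at most 0.258 CPM and among those of AhR-/- replicates 3 and 4 alone had more, so that state and Y-linked reads cannot be told apart in WT and CYP1B1-/- and only in part in AhR-/-. In WT, Cdh1, Ctnna1, Gja1 and most plaque genes were lower after HDM, and Nectin1, Nectin4, Gjb1 and Ctnnd2 were higher. Of 62 genes tested, 4 were higher (6.45%) and 17 lower (27.4%), where 19% and 19.4% of all 16639 genes were. In AhR-/- libraries 7 were higher and 7 lower (11.3% each), where 10.6% and 10.1% of all genes were, and in CYP1B1-/- libraries 6 were higher (9.68%) and 13 lower (21%), where 15.5% and 17.9% were. The median log2 fold change of the 62 genes was -0.70 in WT, -0.37 in AhR-/- and -0.09 in CYP1B1-/-, and that of all genes -0.11, -0.05 and -0.02. In the WT comparison the groups did not overlap for 3 of the 62 genes with HDM above and 16 with HDM below, where 17.7% and 21.2% of all genes did so.

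Among the cadherins, Cdh1 had 667, 710, 743 and 976 CPM in naive and 301, 219, 301 and 192 CPM in HDM libraries of WT. Every HDM library was below every naive one, and Cdh1 fell by 1.61 (SE 0.26) on the log2 scale in WT, by 1.50 (SE 0.28) in AhR-/- and by 2.00 (SE 0.28) in CYP1B1-/- (edgeR adjusted p = 5.21e-05, 0.00118 and 2.37e-05). Cdh13 had 249, 216, 265 and 302 CPM in naive and 20.6, 35.8, 11.3 and 5.96 CPM in HDM libraries of WT. It fell by 3.83 (SE 0.69) in WT and by 3.71 (SE 0.71) in CYP1B1-/- on the log2 scale. In AhR-/- its HDM libraries ran from 26.1 to 222 CPM against 187 to 272 CPM in naive ones, and the difference did not pass. Cdh11 (-1.80), Cdh8 (-1.75) and Cdh6 (-1.42) were lower in WT, Cdh7 was lower in AhR-/- (-2.39) and Cdh17, a cadherin of the gut, was higher in CYP1B1-/- (2.15). The calls of Cdh8 and Cdh6 in WT were lost under 11 and 9 of 14 alternatives and that of Cdh7 in AhR-/- under 10 of 13, against 1 of 14 for Cdh11. With 1 library left out, the log2 fold change ran from -2.66 to -1.26 for Cdh8, from -1.73 to -1.06 for Cdh6 and from -2.77 to -1.80 for Cdh7.

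Of the catenins, Vcl had 74.4, 92.9, 110 and 170 CPM in naive and 15.1, 16.5, 19.6 and 18 CPM in HDM libraries of WT, without overlap. Its log2 fold changes were -2.69, -2.80 and -3.28 in WT, AhR-/- and CYP1B1-/-, all past the threshold. Part of its exons (25.5%) is shared with Ap3m1 on the other strand. Ctnna1 fell by 1.59 in WT and 1.95 in CYP1B1-/-, and Ctnnd1 fell by 1.46 and 1.06, where the call in CYP1B1-/- was lost under 9 of 13 alternatives. Ctnnd2 rose by 1.36 in WT and 1.57 in CYP1B1-/-, and Ctnnb1 rose in AhR-/- by 1.13, from 44.2 to 60.2 CPM in naive to 83.9 to 155 CPM in HDM libraries, a call lost under 5 of 13 alternatives.

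The nectins divided by member. Nectin1, also an entry receptor of herpesviruses, had 1.67, 1.36, 1.90 and 1.43 CPM in naive and 22, 10.1, 10.0 and 6.86 CPM in HDM libraries of WT, without overlap. It rose by 2.96 (SE 0.46), 2.53 (SE 0.52) and 3.18 (SE 0.53) on the log2 scale in WT, AhR-/- and CYP1B1-/-, and Nectin4 rose by 1.52, 1.77 and 2.02. The call of Nectin4 in AhR-/- was lost under 6 of 13 alternatives, and its log2 fold change there ran from 0.92, without HDM replicate 2, to 2.18 with 1 library left out. In the AhR-/- HDM libraries Nectin1 was 13.9, 6.96, 1.82 and 2.47 CPM, with replicates 3 and 4 near the naive level, and without replicate 1 the log2 fold change was 1.80. Nectin2 fell by 1.61, 1.51 and 1.34, and Nectin3 fell by 2.35 in WT and 2.29 in CYP1B1-/-. Nectin3 ran from 49.5 to 224 CPM in AhR-/- HDM libraries and from 107 to 124 CPM in naive ones. Afdn fell by 0.78 in WT, a call lost under 5 of 14 alternatives.

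Of the desmosomal genes, none of 8 cadherins tested passed in any genotype. Pkp2 had 118, 154, 213 and 287 CPM in naive and 28.4, 29.7, 19.0 and 11.4 CPM in HDM libraries of WT, and Jup had 156, 157, 211 and 271 CPM in naive and 59.7, 46.4, 67.6 and 57.3 CPM in HDM libraries. Both were free of overlap between the states. On the log2 scale Pkp2 fell by 3.13, 1.57 and 3.07 and Jup by 1.78, 2.36 and 2.14 in WT, AhR-/- and CYP1B1-/-, where the call of Pkp2 in AhR-/- was lost under 5 of 13 alternatives. Dsp, Ppl and Evpl fell by 2.14, 2.08 and 1.92 in WT and by 1.83, 2.09 and 2.57 in CYP1B1-/- and did not pass in AhR-/-. Without naive CYP1B1-/- replicate 2, the log2 fold changes in CYP1B1-/- were -2.44 for Pkp2 and -1.89 for Evpl. In AhR-/-, Pkp3 fell by 1.10 and Pkp4 rose by 1.08 (calls lost under 9 and 6 of 13 alternatives).

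Among 13 connexins tested, Gja1 fell by 1.80 in WT and by 1.64 in CYP1B1-/-, with 477, 466, 634 and 542 CPM in naive and 217, 188, 144 and 59.6 CPM in HDM libraries of WT. In AhR-/- HDM libraries Gja1 had 497, 270, 410 and 514 CPM against 631, 580 and 662 CPM in naive ones, and did not pass. Connexin 32 (Gjb1), known from the liver and from myelin, rose by 2.17 in WT and 2.47 in CYP1B1-/- from levels under 1 CPM, calls that were lost under 7 of 14 and 6 of 13 alternatives. Gjb1 did not pass the filter on low counts among the naive libraries alone and was tested here through its HDM counts. With 1 library left out its log2 fold change ran from 1.70 to 2.92 in WT, where the highest value was that without naive replicate 4, and from 2.10 to 3.24 in CYP1B1-/-, where it was that without naive replicate 3. It also passed in AhR-/-, where its naive libraries had 2, 0 and 1 counts and its HDM libraries 30, 44, 2 and 6, and no fold is given. Connexin 26 (Gjb2) rose by 2.45 in AhR-/-, by 3.16 without naive replicate 3 and by 2.09 without naive replicate 4, where the call was lost. Past the threshold in all 3 genotypes were Nectin1 and Nectin4 upwards and Cdh1, Vcl, Nectin2, Jup and Pkp2 downwards. The calls of Nectin4 and Pkp2 in AhR-/- were lost under 6 and 5 of 13 alternatives. Gjb1 also passed upwards in all 3, but only its HDM counts let it pass the filter, and its calls in WT and CYP1B1-/- were lost as given above.

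**Figure D5:**
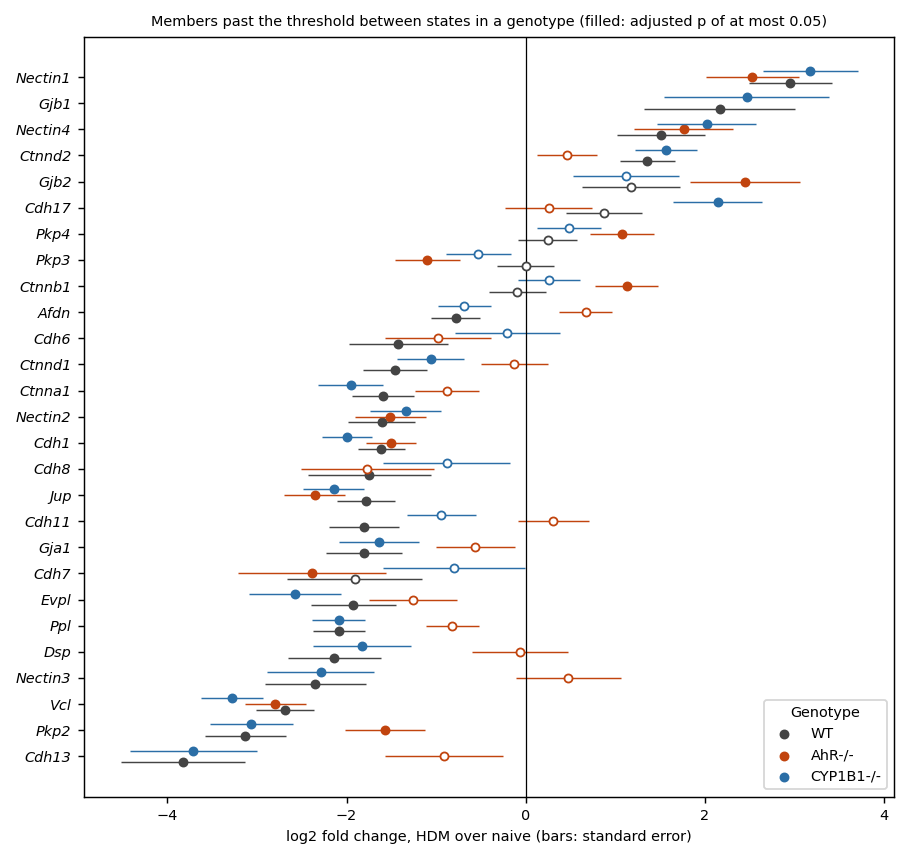
Log2 fold change of HDM over naive with its standard error, in each genotype, for 27 genes past the threshold in at least 1 genotype; filled points have an edgeR adjusted p of at most 0.05, and Gjb1 in AhR-/- is left out for its 3 naive counts. Cdh1, Vcl, Nectin2, Jup and Pkp2 have filled points below 0 in all 3 genotypes, while the AhR-/- points of Nectin3, Dsp and Cdh13 lie between -0.91 and 0.48.

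Cell type markers differed between the states as well. In WT the summed hematopoietic markers ran from 270 to 571 CPM in naive and from 1910 to 5880 CPM in HDM libraries, AT1 markers from 25300 to 31100 and from 853 to 5590 CPM, mesenchymal markers from 2190 to 3210 and from 144 to 716 CPM, endothelial markers from 282 to 346 and from 66.9 to 121 CPM, AT2 markers from 2870 to 6690 and from 5860 to 32000 CPM, and epithelial markers from 2300 to 3940 and from 488 to 1100 CPM. Of 12 epithelial markers, 9 were lower and 1 higher in WT, 3 lower and 1 higher in AhR-/- and 8 lower and 1 higher in CYP1B1-/-, with median log2 fold changes of -1.68, -0.40 and -1.51. Their sum ran from 2770 to 3090 CPM in naive and from 1210 to 1710 CPM in HDM libraries of AhR-/-, and from 2840 to 3630 and from 573 to 1210 CPM in those of CYP1B1-/-. Of 8 AT1 markers, 7, 1 and 8 were lower and none higher in WT, AhR-/- and CYP1B1-/-. Of 24 hematopoietic markers 21, 20 and 21 were higher and 0, 1 and 1 lower, and of 10 AT2 markers 6, 9 and 9 were higher and none lower. In AhR-/- the summed AT1 markers ran from 27100 to 31500 CPM in naive and from 4100 to 22700 CPM in HDM libraries, and the hematopoietic markers from 299 to 315 and from 269 to 1330 CPM. In CYP1B1-/- the AT1 markers ran from 19500 to 32700 and from 605 to 4980 CPM, and the hematopoietic markers from 281 to 326 and from 413 to 6050 CPM. None of the markers in these lists was at 0 in a group, and their part in the result was not tested. The summed hematopoietic markers did not overlap between the states in WT and CYP1B1-/-, so that their score and state can hardly be told apart there. With a hematopoietic score in the fit, 0, 2 and 1 of the 62 genes passed in WT, AhR-/- and CYP1B1-/- (10, 12 and 9 at an unadjusted p under 0.05). In WT the log2 fold change became -1.21 for Cdh1, -1.73 for Vcl, -2.18 for Cdh13, -1.16 for Nectin3, -0.81 for Dsp, -0.93 for Gja1 and 1.78 for Nectin1 in that fit. The 14 calls in AhR-/- became 7, 8 and 7 without naive AhR-/- replicate 1, 3 or 4.

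Whether the genotype changed the response to HDM was tested as an interaction. None of the 62 genes passed for AhR-/- (11 at an unadjusted p under 0.05, a p that 18.3% of all genes had), and 0% of all genes did in either direction. The lowest p belonged to Cdh11, whose log2 difference of HDM minus naive was 2.11 higher in AhR-/- than in WT (SE 0.56), Afdn (1.45, SE 0.41) and Nectin3 (2.82, SE 0.82), each with an edgeR adjusted p of 0.149. Ppl (1.27), Cdh13 (2.92) and Dsp (2.08) followed, with adjusted p of 0.149, 0.149 and 0.165. In edgeR's likelihood ratio test 2 genes passed, in DESeq2 5, and without AhR-/- HDM replicate 2, 7. For CYP1B1-/- neither the threshold (0% of all genes in either direction) nor an unadjusted p under 0.05 was met by any of the 62 genes, and the likelihood ratio test and DESeq2 gave 0 as well.

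Of the 25 accessory genes, 16 were lower and 1 higher after HDM in WT, 6 lower and 0 higher in AhR-/- and 16 lower and 0 higher in CYP1B1-/-, where 19.4%, 10.1% and 17.9% of all genes were lower. Those lower in all 3 genotypes included Arvcf, a relative of p120-catenin (-2.60, -1.97 and -3.43), Plekha7, which links p120-catenin to microtubules (-2.44, -1.51 and -2.45), and Ajuba, a LIM protein at the junction (-2.73, -1.64 and -2.69, log2 fold changes in WT, AhR-/- and CYP1B1-/-). Of the 5 transcription factors tested, Zeb1 was higher (3.12, 1.40 and 2.76) and Snai1 lower (-2.86, -1.32 and -2.76) in the 3 genotypes, and Zeb2 was higher in WT (1.30) and CYP1B1-/- (2.21).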

How the data were processed

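Reads of sorted lung ECs were trimmed by the authors with bbduk, mapped to mm10 with GSNAP and counted per gene of Ensembl release 99 with featureCounts 2.0.0 after base calling with bcl2fastq 2.19.1. The authors deposited raw counts per gene, which are whole and not normalized. How strand and reads of several positions were treated is not given in the sources used here.

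Of 54373 gene identifiers, 54147 were matched to GENCODE M21 (GRCm38), and 21793 protein-coding genes were used. In R 4.3.3 with edgeR 4.0.16, filterByExpr (at least 10 counts and 15 in total, groups as given), TMM, robust glmQLFit and glmQLFTest were applied. One fit held the 3 genotypes of a table, and another all 22 libraries for HDM against naive and the interactions. p-values were adjusted over all genes tested by Benjamini-Hochberg, with a threshold of 0.05. SE is the absolute log2 fold change over the square root of F. CPM in genotype comparisons use TMM sizes within a table, elsewhere over all libraries, with a prior count of 1 for log2 values. Genotype groups came from the labels, and 0 columns were left unused.

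Values of fold change are given for genes past the threshold in any comparison, for the 5 of lowest p in each genotype comparison and for those with at least 10 CPM in WT libraries of a table. Those of this last kind that are not named in a comparison are given by counts. The genes, accessory lists and marker lists were chosen with earlier results of these data known. Alternatives were edgeR's likelihood ratio test, DESeq2 1.42.0, RLE normalization, no filter, the replicate number as a block, a hematopoietic score as covariate, the compared groups alone, a prior count of 0.25, libraries with Y-linked reads left out and each library left out in turn. Leaving out 5 HDM libraries with over 60% of counts on Gm10800 was chosen after seeing the data. Some genes are not reported here by name. The scripts were tested on simulated data. Motifs were searched with Python 3.11.15.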

Additional observations from a re-analysis of the deposited data

Results flagged for a closer look

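In 113 groups of 4 libraries, the log2 CPM of a gene was searched for 1 library far from the other 3 (Dixon's test at 95%), and 5 such libraries were found, where chance gives about 1 in 20 groups (5.65). Dsp stood at 3.84 in AhR-/- replicate 2 after HDM, where the other 3 libraries had 5.51 to 5.67. Ctnna1 stood at 7.98 in CYP1B1-/- replicate 4 after HDM, against 7.45 to 7.51 in the others. Evpl was 1.88 in WT replicate 2 after HDM and -0.03 to 0.18 in the other WT libraries. In naive WT replicate 4, Gjc3 was -0.99 against 0.55 to 0.78, and Cdh9 was 0.29 against 2.01 to 2.24. The causes were not tested.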

How the results depend on the processing

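For AhR-/- against WT after HDM, the 12 calls became 0 with the replicate block, with the hematopoietic covariate and without the libraries with Y-linked reads, and 0 to 12 with 1 library left out, while the likelihood ratio test gave 13, DESeq2 15, RLE 11 and no filter 8. CYP1B1-/- against WT after HDM, the naive comparisons and the CYP1B1-/- interaction had 0 calls under every alternative run. For AhR-/- against CYP1B1-/- after HDM, 0 calls became 6 in the likelihood ratio test, 7 in DESeq2, 2 without the libraries of low depth and 0 to 11 with 1 library left out. HDM against naive gave 21, 14 and 19 calls in WT, AhR-/- and CYP1B1-/-, which became 0, 2 and 1 with the hematopoietic covariate, 17 to 21, 7 to 14 and 15 to 20 with 1 library left out, and 20, 12 and 18 with the replicate block. The AhR-/- interaction, 0 calls, gave 2 in the likelihood ratio test, 5 in DESeq2 and 0 to 7 with 1 library left out. Same-numbered HDM libraries correlated in their deviations from group means with r from -0.47 to 0.67 over 12 pairs, 4 over 0.1. Differently numbered HDM libraries had r from -0.67 to 0.52 over 36 pairs, 18 over 0.1. For naive libraries r ran from -0.02 to 0.24 over 8 same-numbered pairs, 4 over 0.1, and from -0.27 to 0.24 over 25 other pairs, 4 over 0.1. With so few libraries in a group, these values cannot decide whether the numbers pair the samples. RLE normalization moved the median log2 fold change of all genes between HDM and naive CYP1B1-/- libraries from -0.02 to 0.11. Small log2 fold changes turned sign. In AhR-/- against WT after HDM, Vcl became 0.08 and Cdh7 0.05 without AhR-/- replicate 1, Vcl 0.10, Nectin2 -0.16 and Cdh16 -0.10 without AhR-/- replicate 2, and Cdh7 0.28 without WT replicate 2 (ranges with 1 library left out: Vcl -0.54 to 0.10, Nectin2 -0.16 to 0.39, Cdh16 -0.10 to 0.70, Cdh7 -0.91 to 0.28). There Cdh1 became -0.24, Evpl -0.84 and Nectin2 -0.17 with the hematopoietic covariate, and Cdh1 -0.049 without the Y-positive libraries. Cdh5 in CYP1B1-/- against WT after HDM became -0.11 without the libraries of low depth. The causes were not tested. Within the HDM libraries 43 of the 72 genes passed the filter on low counts, and 62 did in the fit of all 22 libraries.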
